A study of Mus musculus with 18 samples.

Results

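The genes examined here were the 10 that make and carry microRNAs (miRNAs) in the mouse: Dicer1, Drosha, Dgcr8, Xpo5, Tarbp2, Prkra, Ago1, Ago2, Ago3 and Ago4. They were taken by symbol from a table of 55450 genes, and each symbol was on a single row. The values are TPM, a transcript level scaled for transcript length and to a fixed total in every sample, from poly(A) RNA sequencing of 18 samples of P19, a mouse embryonic carcinoma cell line. The 3 lines had 6 samples each. WT cells had genotype Dicer (+/+). HetKO cells, Dicer (+/-), were a clonal line in which CRISPR had truncated 1 Dicer1 allele. HM cells, Dicer (HM/-), were derived from the HetKO line, kept its truncated allele and carried an RNase IIIb hotspot missense mutation on the other. Each edited genotype was therefore a single line, and effects of the genotype cannot be told apart from other differences between lines. The comparisons ask whether the machinery that surrounds Dicer had a different mRNA level in cells whose Dicer was reduced or altered.

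A miRNA begins as a hairpin within a longer transcript. In the nucleus the Microprocessor, made of the RNase III enzyme Drosha and its RNA-binding partner Dgcr8, cuts the hairpin free, and exportin-5 (Xpo5) carries it to the cytoplasm. Dicer, with the double-stranded RNA-binding proteins Tarbp2 (TRBP) and Prkra (PACT), removes the loop, and an Argonaute protein keeps 1 strand of the resulting duplex as the guide for silencing.

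Some samples resembled each other more than the rest of their line. Among 683 genes that averaged 200 TPM or more, each line split into 3 pairs of similar samples: 1 with 4, 2 with 5 and 3 with 6 in WT and in HetKO, and 1 with 4, 2 with 3 and 5 with 6 in HM. The robust SD of the log2 ratio was 0.0510 to 0.0696 within the HetKO pairs, against at least 0.164 between other HetKO samples, and the HM pairs were separated in the same way. In WT the pairs were less distinct, with 0.0493 to 0.0746 within pairs and at least 0.0730 between other samples. The labels do not say which samples came from separate cultures, so p-values measure the spread between these samples, which may be technical. HetKO samples 2 and 5 also held far more mesoderm marker RNA (T, Mixl1, Tbx6, Mesp1 and Eomes, summed) than the rest, nearly all of it T and Eomes, at 195 and 137 TPM against no more than 27.6 TPM in the other HetKO samples, 14.5 to 23.1 in WT and 30.6 to 65.5 in HM. Mixl1, Tbx6 and Mesp1 did not exceed 1.81, 3.68 and 0.39 TPM in any sample. Fibroblast markers summed to 8.32 and 8.95 TPM in HetKO samples 2 and 5 and to 30.6 to 32.6 TPM in the other HetKO samples, and neural markers to 25.4 and 23.7 TPM against 32.4 to 47.8 TPM. The embryonic carcinoma markers Pou5f1, Sox2, Nanog, Tdgf1, Lin28a, Utf1 and Dppa4 summed to between 2523 and 3327 TPM in the 18 samples, most of it Pou5f1 (mean 2040 to 2095 TPM by line), and endoderm markers to at most 4.28 TPM. Single markers differed between lines, and not in 1 direction. Nanog averaged 46.9 TPM in WT, 86.3 TPM in HetKO and 18.8 TPM in HM (HM against WT, limma, adjusted p = 0.000903). Sox2 averaged 98.6, 114 and 157 TPM in the same order (HM against WT, limma, adjusted p = 1.95e-05). Utf1 averaged 220, 148 and 381 TPM (HM against WT, limma, adjusted p = 0.000704). Dppa4 was as low as 1.44 TPM in a sample. TPM carry no read depth, so counting error is unknown.

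Dicer1, the edited gene, occupies chromosome 12 at 104687742 to 104751952 (mm10, minus strand). Its level was 49.2, 53.4, 54.8, 53.5, 50.5 and 52.3 TPM in WT samples 1 to 6. In HetKO samples 1 to 6 it was 53.8, 42.9, 44.9, 51.6, 46.7 and 48.2 TPM. In HM samples 1 to 6 it was 43.0, 39.5, 38.5, 35.4, 40.9 and 44.2 TPM. Every HM sample lay below every WT sample, while the HetKO range overlapped both. The mean fell from 52.3 ± 2.09 TPM (SD, n = 6) in WT to 40.3 ± 3.18 TPM (SD, n = 6) in HM, a ratio of 0.770 and a difference of -0.37 ± 0.06 (SE) on the log2(TPM + 1) scale (limma, adjusted p = 0.000251). HM was also below HetKO, by a difference of -0.25 ± 0.07 (SE; limma, adjusted p = 0.0216), which lost the call when each sample was centred on its median (difference -0.13, adjusted p = 0.186) or when HM samples 2 and 3 were left out (-0.23, adjusted p = 0.0650) or pairs of alike samples were averaged (-0.25, adjusted p = 0.232). The HetKO mean of 48.0 ± 4.10 TPM (SD, n = 6) did not differ from WT by this test (difference -0.12, 95% confidence interval -0.26 to 0.01; limma, adjusted p = 0.207). A gene level adds the transcripts of both alleles, so these values do not separate truncated from full-length Dicer1 mRNA.

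**Figure D1:**
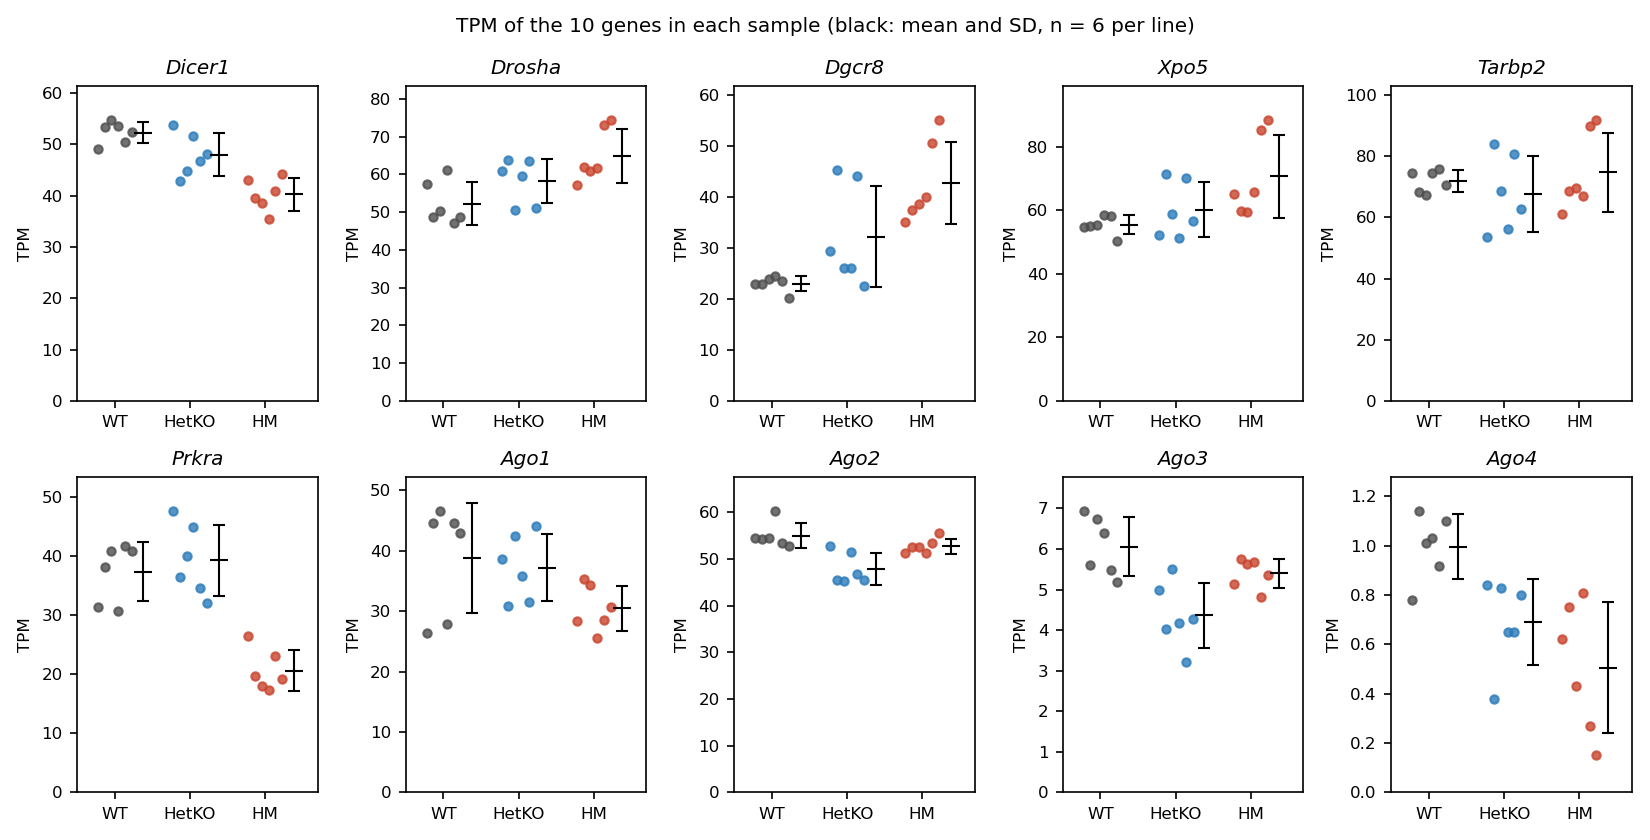
TPM of each of the 10 genes in the 18 samples. Points are samples in the order 1 to 6 within a line, black bars are the mean and SD of 6 samples, and each axis starts at 0. Dicer1 and Prkra are lowest in HM and Dgcr8 is highest there, and the HetKO samples of Dgcr8 split into 2 high and 4 low values.

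Across the set, 9 of the 10 genes averaged 1 TPM or more and entered the test of HM against WT. Of these, 5 were called at an adjusted p under 0.05, with 3 higher (Dgcr8, Xpo5 and Drosha) and 2 lower (Prkra and Dicer1) in HM. Among all 14043 genes tested, 51.4% were called, 19.4% as higher and 32.0% as lower. The samples of HM and WT did not overlap for 4 of the 9 genes, against 28.5% of all genes. The share of members called was therefore close to that of the transcriptome. The median difference was -0.06 over the 9 genes and -0.09 over all genes tested. Of all calls, 37.7% were higher in HM, and this share was 61.0% after centring each sample on its median, which moved the median of all genes to 0.08, and 51.1% after quantile normalization. The same 5 members were called, in the same directions, under both of these scalings. With each pair of alike samples averaged into 1 replicate, 3 calls were left (Dgcr8, Prkra and Dicer1), with Drosha at adjusted p = 0.113 and Xpo5 at adjusted p = 0.132 (limma).

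Between HetKO and WT, 2 of the 9 genes tested were called, both lower (Ago2 and Ago3), where 10.2% of 13999 genes were called, 3.71% as higher and 6.44% as lower. Of those calls 36.5% were higher, and 50.7% after centring and 48.1% after quantile normalization. No member had non-overlapping samples, against 8.21% of all genes. Neither call held without HetKO samples 2 and 5, without WT samples 1 and 4 (an alternative added after the data were seen), or with averaged pairs. Between HM and its parent line HetKO, 2 of 9 were called, both lower (Dicer1 and Prkra), where 34.6% of 13762 genes were called, 14.0% as higher and 20.6% as lower. Of those calls 40.4% were higher, and 60.9% after centring. The count of members was 5 without HetKO samples 2 and 5, with Dgcr8 (0.69) and Xpo5 (0.34) higher and Ago1 (-0.39) lower added. It was also 5 with all 3 lines in a single fit or with quantile normalization, where Dgcr8, Ago2 and Ago3 were added as higher, 4 without HetKO sample 2 or 5 alone, and 1 with averaged pairs. The samples did not overlap for Prkra alone, against 15.5% of all genes. These comparisons share samples: the WT samples serve both edited lines.

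**Figure D2:**
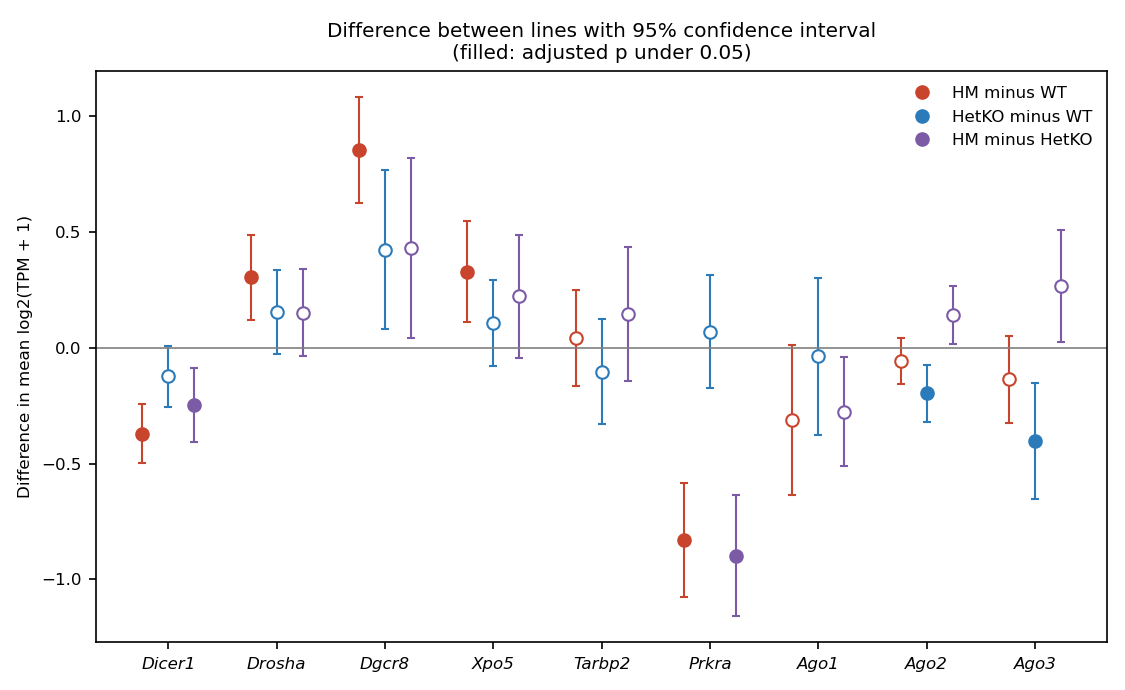
Difference between lines in mean log2(TPM + 1) for the 9 genes tested, with 95% confidence intervals. Filled points have an adjusted p under 0.05. Dgcr8 has the largest rise from WT to HM (0.85) and Prkra the largest fall (-0.83), and Prkra in HetKO sits beside WT (0.07).

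The Microprocessor genes were both higher in HM than in WT. Dgcr8 (chromosome 16, 18253948 to 18289246, minus strand) encodes the subunit that recognises the hairpin. Its lowest, median and highest levels were 20.1, 23.2 and 24.4 TPM in WT, 22.4, 27.7 and 45.2 TPM in HetKO and 35.0, 39.2 and 55.1 TPM in HM. All HM samples lay above all WT samples. The mean rose from 22.9 ± 1.49 to 42.7 ± 8.06 TPM (SD, n = 6 each), a ratio of 1.86 and a difference of 0.85 ± 0.11 (SE) on the log2 scale (limma, adjusted p = 4.63e-05), which was larger in size than the change of 89.3% of the genes tested. HetKO samples 2 and 5, which also stood apart in mesoderm, fibroblast and neural markers, were at 45.2 and 44.1 TPM, within the HM range, and the other 4 HetKO samples were at 22.4 to 29.3 TPM. The part of those markers in the Dgcr8 values was not tested. With all 6 HetKO samples Dgcr8 did not pass against WT (difference 0.42, adjusted p = 0.106) or against HM (difference 0.43, adjusted p = 0.0807; limma in each case). Without HetKO samples 2 and 5 the difference of HM from HetKO was 0.69 (limma, adjusted p = 0.00195).

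The Dgcr8 transcript itself holds hairpins of the kind that the Microprocessor cuts, and cutting of this transcript by the complex is known as a feedback on Dgcr8. The RefSeq table (GRCm38.p6) places the miR-1306 hairpin at chr16:18284239-18284317 and the miR-3618 hairpin at chr16:18284550-18284637, both on the minus strand. In the Dgcr8 transcript of GENCODE release M21, both hairpins lie in exon 2. The miR-1306 hairpin is wholly within coding sequence and the miR-3618 hairpin wholly within the 5′ UTR. Their mature strands are shown because they are part of the mRNA that rose, with the seed (bases 2 to 8) in capitals.
miR-1306-5p: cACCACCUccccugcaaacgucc
miR-1306-3p: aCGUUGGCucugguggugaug
miR-3618-5p: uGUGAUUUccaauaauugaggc
miR-3618-3p: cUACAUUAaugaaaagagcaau
Poly(A) RNA sequencing does not measure these small RNAs, and their own rows were at 0 TPM in every sample. Dgcr8 also overlaps Gm49776 on the same strand, which averaged 1.82 TPM in WT and 3.23 TPM in HM, and the end of Trmt2a on the opposite strand, at 42.5 and 44.5 TPM. RSEM, which quantified the genes, divides reads that fit several transcripts by estimate, and the strand setting is not given in the sources used here.

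Drosha (chromosome 15, 12824815 to 12935291, plus strand) encodes the nuclease of the complex. It spanned 47.2 to 61.2 TPM in WT with a median of 49.5, 50.6 to 63.8 TPM in HetKO with a median of 60.2, and 57.0 to 74.4 TPM in HM with a median of 61.8. WT samples 1 and 4 overlapped the HM range. The mean rose by a ratio of 1.24 from WT to HM, a difference of 0.30 ± 0.08 (SE; limma, adjusted p = 0.00914), and this call was lost without HM samples 5 and 6, which held the highest values (difference 0.21, adjusted p = 0.0507; an alternative added after the data were seen). HetKO did not pass against WT (difference 0.15, adjusted p = 0.256; limma). Within a sample, Drosha mRNA exceeded Dgcr8 mRNA 2.01- to 2.51-fold in WT, 1.41- to 2.28-fold in HetKO and 1.35- to 1.65-fold in HM. The HM and WT ranges of this ratio did not overlap, and the ratio does not depend on how TPM are scaled.

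Xpo5 (chromosome 17, 46202782 to 46243598, plus strand) encodes the export receptor of the hairpin precursor. It spanned 50.4 to 58.7 TPM in WT with a median of 55.2, 51.4 to 71.4 TPM in HetKO with a median of 57.8, and 59.5 to 88.5 TPM in HM with a median of 65.3. The highest WT sample (58.7 TPM) lay just below the lowest HM sample (59.5 TPM). The mean rose by a ratio of 1.28 from WT to HM, a difference of 0.33 ± 0.10 (SE; limma, adjusted p = 0.0153), and without HM samples 5 and 6, at 85.4 and 88.5 TPM, the difference was 0.17 (limma, adjusted p = 0.0325). The ratio of Xpo5 to Dicer1 mRNA had a mean of 1.06 ± 0.07 in WT, 1.27 ± 0.28 in HetKO and 1.75 ± 0.26 in HM (SD, n = 6 each). The lowest HM ratio (1.51) was above the highest WT ratio (1.15). Because Xpo5 was higher and Dicer1 lower in HM, each without overlap, this separation follows from them and is no separate result.

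Of the double-stranded RNA-binding partners of Dicer, Prkra was lower in HM and Tarbp2 did not pass the test. Prkra (chromosome 2, 76629898 to 76648015, minus strand) spanned 30.8 to 41.8 TPM in WT with a median of 39.6, 32.1 to 47.6 TPM in HetKO with a median of 38.2, and 17.4 to 26.5 TPM in HM with a median of 19.5. Every HM sample lay below every sample of the other lines. The mean fell from 37.4 ± 4.98 TPM in WT to 20.6 ± 3.48 TPM in HM (SD, n = 6 each), a ratio of 0.553 and a difference of -0.83 ± 0.11 (SE; limma, adjusted p = 9.44e-05). Against HetKO the difference was -0.90 ± 0.12 (SE; limma, adjusted p = 0.000192). HetKO and WT did not differ by this test (difference 0.07, 95% confidence interval -0.17 to 0.31; limma, adjusted p = 0.711). Prkra was called in both comparisons with HM under every alternative listed in the closing section, with a difference from WT between -0.78 and -0.90 when any single sample was left out.

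Tarbp2 (chromosome 15, 102518192 to 102523676, plus strand) had the highest mean of the 10 genes in every line, at 71.8 ± 3.58 TPM in WT, 67.7 ± 12.5 TPM in HetKO and 74.7 ± 12.9 TPM in HM (SD, n = 6 each). The difference of HM from WT was 0.04, with a 95% confidence interval of -0.17 to 0.25 (limma, adjusted p = 0.739), and it was -0.11 without HM samples 5 and 6, which were at 89.9 and 91.9 TPM. The Tarbp2 share of the summed Tarbp2 and Prkra mRNA was 62.2 to 70.8% in WT, 53.0 to 69.9% in HetKO and 69.8 to 82.7% in HM. In ratio terms, Tarbp2 exceeded Prkra 1.96-fold in WT, 1.78-fold in HetKO and 3.70-fold in HM on average.

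The same samples held the highest values of several members. In HM, samples 5 and 6 were the highest for Drosha, Dgcr8, Xpo5 and Tarbp2. In HetKO, samples 2 and 5 were the highest for the same 4 genes. In WT, samples 1 and 4 were the highest for Drosha and the lowest for Prkra and Ago1. These are pairs of alike samples, so within a line the members did not vary independently.

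Of the Argonautes, Ago2, the only mammalian Argonaute known for robust slicing of targets, and Ago1 made up most of the mRNA. Ago2 (chromosome 15, 73095844 to 73184935, minus strand) had means of 54.9 ± 2.67 TPM in WT, 47.9 ± 3.37 TPM in HetKO and 52.7 ± 1.61 TPM in HM (SD, n = 6 each). Its difference of HM from WT was -0.06 (95% confidence interval -0.16 to 0.04; limma, adjusted p = 0.326), and turned to 0.12 after centring. In HetKO it was lower than in WT by a difference of -0.20 ± 0.06 (SE; limma, adjusted p = 0.0464), with overlapping samples (45.2 to 52.8 against 52.7 to 60.2 TPM). This call was lost on leaving out any of 10 of the 12 samples, and over all 12 such fits the difference was -0.17 to -0.22. The tail of Ago2 overlaps Chrac1 on the opposite strand, at 39.3 TPM in WT and 36.6 TPM in HM.

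Ago1, Ago3 and Ago4 lie side by side on chromosome 4 (minus strand), within 201.769 kb, with 5.455 kb between Ago3 and Ago1 and 20.957 kb between Ago1 and Ago4. Neighbouring position did not go with equal levels, since in WT Ago1 averaged 38.8 TPM, Ago3 6.06 TPM and Ago4 0.997 TPM. Ago1 split in WT, with samples 1 and 4 at 26.3 and 27.9 TPM and the other 4 at 42.9 to 46.6 TPM, and spanned 30.8 to 44.1 TPM in HetKO and 25.6 to 35.3 TPM in HM. Its difference of HM from WT was -0.31 ± 0.15 (SE; limma, adjusted p = 0.0992). Without WT samples 1 and 4 the difference was -0.54 (limma, adjusted p = 0.000516; an alternative added after the data were seen), and leaving out WT sample 1 alone (-0.41, adjusted p = 0.0199) or WT sample 4 alone (-0.40, adjusted p = 0.0340) also brought it past the threshold. Ago3 spanned 5.19 to 6.93 TPM in WT, 3.22 to 5.51 TPM in HetKO and 4.82 to 5.76 TPM in HM. It was lower in HetKO than in WT by -0.40 ± 0.12 (SE; limma, adjusted p = 0.0442), a call lost on leaving out any of 10 of the 12 samples, and its difference of HM from WT was -0.14 (limma, adjusted p = 0.208; 0.04 after centring and 0.08 after quantile normalization).

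Ago4 had a mean under 1 TPM over the samples of each comparison, so it was tested alone. It spanned 0.78 to 1.14 TPM in WT, 0.38 to 0.84 TPM in HetKO and 0.15 to 0.81 TPM in HM. It was lower than WT in HM (difference -0.42) and in HetKO (difference -0.24), with 2-sided exact permutation p = 0.00433 and p = 0.00866, both 0.013 after adjustment over the 3 comparisons, where the smallest p that 924 splits allow is 0.00216. HM and HetKO did not differ by this test (difference -0.18, exact permutation p = 0.169). With no filter in the fit over all genes, the HetKO call was lost (limma, adjusted p = 0.147). The number of reads behind values this low is unknown.

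Summed over the 4 genes, Argonaute mRNA was 88.5 to 109 TPM in WT, 80.8 to 97.2 TPM in HetKO and 83.2 to 94.3 TPM in HM, and the lines overlapped. Ago2 made up 54.8 ± 5.82% of it in WT, 53.3 ± 4.14% in HetKO and 59.3 ± 2.51% in HM (SD, n = 6 each). The WT value rested on the pairs of alike samples, as samples 1 and 4 had Ago2 shares of 61.5% and 63.0% and the other 4 had shares of 50.1 to 51.7%. Argonaute mRNA per Dicer1 mRNA was 1.93 in WT, 1.88 in HetKO and 2.22 in HM on average, with overlapping ranges (1.79 to 2.07 in WT and 1.98 to 2.41 in HM). The coding sequences of the 4 genes were 73.2 to 76.8% identical in pairs, and the longest run of identical bases was 170 between Ago1 and Ago3, against 17 to 53 in the other pairs. Reads that fall wholly within such a run cannot be placed in 1 gene by sequence, and RSEM divides them by estimate, so the split between Ago1 and Ago3 is less certain than their sum.

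**Figure D3:**
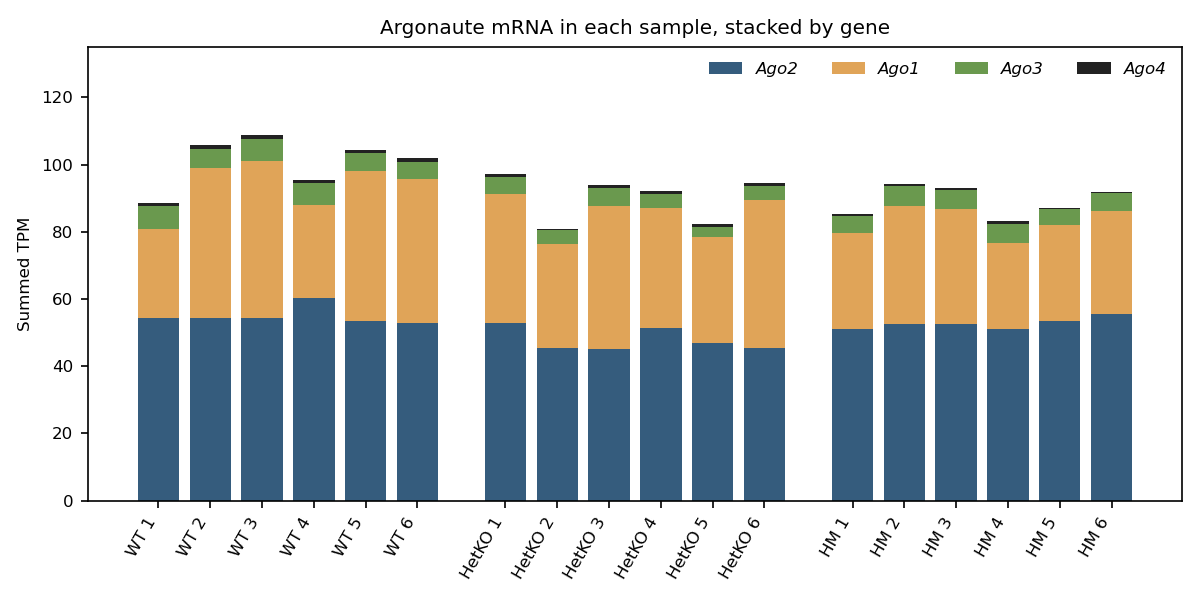
Argonaute mRNA in each of the 18 samples as stacked TPM, with Ago2 at the bottom, then Ago1, Ago3 and Ago4. The Ago2 layer spans 45.2 to 60.2 TPM, with its lowest mean in HetKO and its highest value in WT sample 4. The Ago1 layer is thin in WT samples 1 and 4 (26.3 and 27.9 TPM) compared with the other WT samples.

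By level, in WT Tarbp2 lay above all other members without overlap, followed by Xpo5, Ago2, Dicer1 and Drosha at mean levels of 55.4 to 52.3 TPM, whose neighbours in the order overlapped. Ago1 and Prkra (38.8 and 37.4 TPM) overlapped too, and Dgcr8, Ago3 and Ago4 were each separated from the next. In HM the order ran Tarbp2, Xpo5, Drosha, Ago2, Dgcr8, Dicer1, Ago1, Prkra, Ago3 and Ago4, so that Dgcr8 passed from the eighth place to the fifth and stood beside Dicer1 (42.7 and 40.3 TPM, overlapping).

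The profiles of single members were set against 11882 other genes, by the mean absolute difference over the 18 samples of log2(TPM + 1) centred on the WT mean. The closest to Dicer1 were Oxr1 (0.0634), Dnmbp (0.0677) and Eef1a1 (0.0681). The closest to Dgcr8 were Jpt2 (0.0801), Tatdn2 (0.0882) and Nt5m (0.0954), and the closest to Prkra were Idh2 (0.0775), Ebag9 (0.126) and Nipsnap1 (0.131). Idh2 averaged 81.6 TPM in WT, 85.4 TPM in HetKO and 43.6 TPM in HM.

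Other genes of the pathway were described in 3 lists. Of 15 cofactors of the Microprocessor, 7 were higher and 2 lower in HM than in WT, where the share over all genes was 19.4% and 32.0%, and the list's median difference was 0.19 against -0.09. The largest rises were of Srsf3 (0.63), a splicing factor that aids hairpin recognition, Ncbp2 (0.55) of the nuclear cap-binding complex and Erh (0.52), a small protein that binds Dgcr8. Ddx5 (0.43), Tardbp (0.39), Hnrnpa2b1 (0.28) and Safb (0.21) were also higher. Safb lost its call with averaged pairs (limma, adjusted p = 0.203), after quantile normalization (0.119) and with the replicate number as a block (0.0632). It also lost it without HM samples 5 and 6 (limma, adjusted p = 0.209), HM samples 2 and 3 (0.0893) or WT samples 1 and 4 (0.0739). The helicase Ddx17 (-0.38) and Khsrp (-0.33), which binds hairpin loops, were lower, and Khsrp lost its call after centring (limma, adjusted p = 0.0794). Between HetKO and WT only Ddx17 was called in this list (-0.37; limma, adjusted p = 0.0132).

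Of 8 genes of hairpin export and tailing, 4 were higher and 3 lower in HM, beside 19.4% and 32.0% of all genes, and the list's median difference was 0.12 against -0.09. The GTPase Ran, which loads exportins, rose from 1218 to 1609 TPM (0.40), and Xpo1 (0.27) and Lin28a (0.27) were higher. The Lin28a call was lost after quantile normalization (difference 0.11, limma, adjusted p = 0.259). It was also lost with averaged pairs (limma, adjusted p = 0.143) and without HM samples 5 and 6 (adjusted p = 0.0680). Adar, which edits double-stranded RNA, rose from 21.6 to 33.5 TPM (0.59). The enzymes that add uridine tails, Tut4 (-0.43) and Tut7 (-0.24), and Dis3l2 (-0.60), the exonuclease of tailed precursors, were lower. With averaged pairs as replicates these 3 calls were lost (limma, adjusted p = 0.0513 for Tut4, 0.160 for Tut7 and 0.0846 for Dis3l2). Tut7 also lost its call after centring, after quantile normalization and without HM samples 5 and 6. With the replicate number as a block Tut7 was not called either (limma, adjusted p = 0.0650). Ran was also higher in HetKO (0.31; limma, adjusted p = 0.00464), and no other gene of this list was called there.

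Of 14 genes of Argonaute loading and turnover, 8 were higher and 2 lower in HM, beside 19.4% and 32.0% of all genes, with a median difference of 0.23 against -0.09. Ajuba, a LIM-domain protein that binds Argonaute, rose from 35.7 to 62.0 TPM (0.75). The chaperone genes Hspa8 (0.67), Dnaja2 (0.65) and Hsp90aa1 (0.50), whose products open Argonaute for the duplex, were higher, and Stip1 (0.24), Fkbp4 (0.22), Tsn (0.29) and the importin Ipo8 (0.16) were higher as well. Hsp90ab1, at 3396 TPM in WT and 3402 TPM in HM, did not pass (difference 0.003, limma, adjusted p = 0.964). Ptges3 did not pass either (difference 0.08, limma, adjusted p = 0.286). Zswim8, which marks Argonaute for decay when a target pairs extensively with its guide, was lower (-0.42). Tsnax, the partner of Tsn in the nuclease that clears passenger fragments, was at 49.3 ± 0.85 TPM in WT, 52.8 ± 2.80 TPM in HetKO and 0.167 ± 0.13 TPM in HM (SD, n = 6 each). Between HetKO and WT only Fkbp4 was called (0.20; limma, adjusted p = 0.0157). In HM against WT the higher calls in the 3 lists numbered 6, 3 and 4 with averaged pairs as replicates, and the lower calls 2, 0 and 1, with Zswim8 lost (limma, adjusted p = 0.0725). Hsp90aa1, Fkbp4, Stip1 and Ipo8 lost their higher calls with averaged pairs (limma, adjusted p = 0.0530, 0.0591, 0.114 and 0.191). Ipo8 was also uncalled without HM samples 5 and 6 (limma, adjusted p = 0.0990), WT samples 1 and 4 (0.0712) or HM samples 2 and 3 (0.0563). Stip1 was also uncalled without HM samples 5 and 6 (limma, adjusted p = 0.0532). The higher calls numbered 6, 3 and 6 without HM samples 5 and 6.

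**Figure D4:**
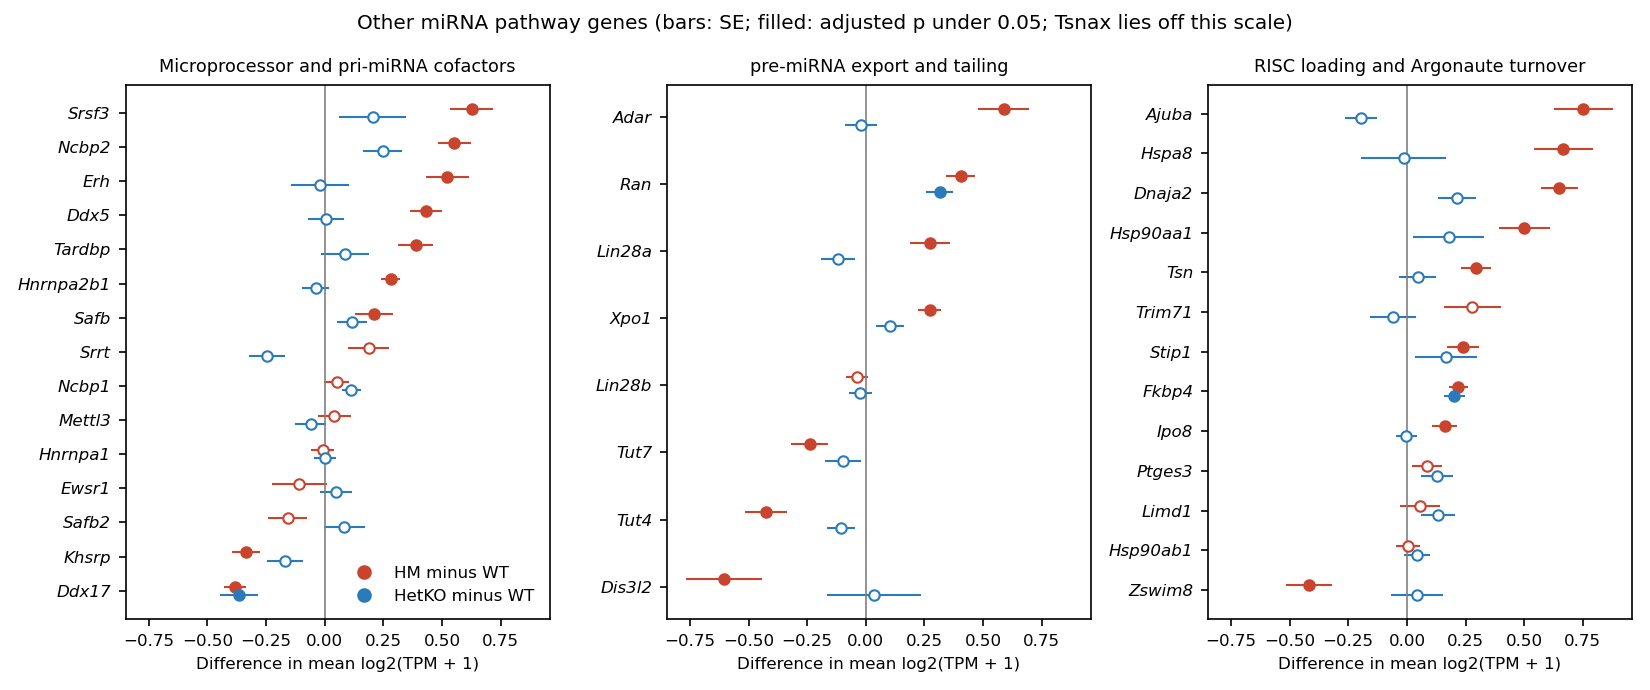
Difference from WT in mean log2(TPM + 1) for the genes of the 3 lists, for HM and HetKO, with the SE as bars. Filled points have an adjusted p under 0.05. In HM, 7 filled points of the Microprocessor list lie above 0 and 2 below, while in HetKO only Ddx17, Ran and Fkbp4 are filled. Tsnax (-5.44 in HM) is off the scale and left out.

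Since genes near each other can change together in an edited clone, each member was set beside the 5 tested genes on each side of it. Prkra fell while its 10 neighbours had a median difference of -0.07 between HM and WT, with 5 lower and 4 higher. Named after their values were seen, its direct neighbours Osbpl6 (-0.74) and Fkbp7 (-0.70) were lower, and the next, Rbm45 (0.60) and Plekha3 (1.09), were higher. The wider window of chromosome 2 from 60 to 80 Mb was taken because earlier results of these data gave it as lower in HM. Its low values in HM follow from that choice and are no separate result. There, 47 of 83 genes tested were lower and 11 higher in HM, beside 32.0% and 19.4% of all genes. The median of the window was -0.57 in HM and 0.03 in HetKO. Dgcr8 (0.85) and Xpo5 (0.33) rose while their neighbours had medians of -0.38 and -0.33. The neighbours of Dicer1 had a median of -0.13 and those of Drosha -0.03.

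**Figure D5:**
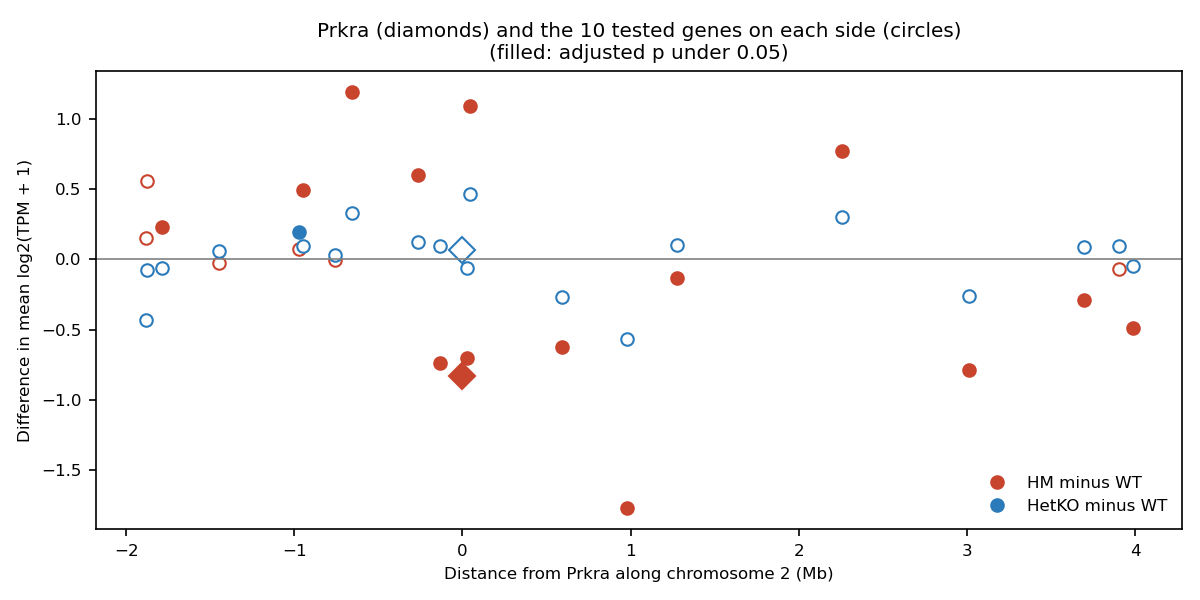
Prkra and the 10 tested genes on each side of it, as the difference from WT in mean log2(TPM + 1) against distance along chromosome 2. Diamonds are Prkra, circles its neighbours, and filled symbols have an adjusted p under 0.05. In HM, Prkra (-0.83) lies among both raised and lowered genes, and in HetKO it is near 0 (0.07).

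An RNase IIIb mutant Dicer is known to leave 5p strands uncut, so the 3′ UTRs of the members were searched for matches to the seeds of strands the study followed. The match is the reverse complement of bases 2 to 8 and was sought on the mRNA strand of the longest annotated 3′ UTR. The strands below had matches in members discussed here, and are from RefSeq (GRCm38.p6) with the seed in capitals. miR-15b-5p and miR-16-5p share a seed, as do miR-17-3p and miR-20b-3p.
miR-15b-5p: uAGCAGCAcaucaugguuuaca
miR-16-5p: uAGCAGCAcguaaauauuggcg
miR-7a-1-3p: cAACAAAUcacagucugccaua
miR-17-3p: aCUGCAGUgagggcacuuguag
miR-20b-3p: aCUGCAGUgugagcacuucuag
miR-19b-3p: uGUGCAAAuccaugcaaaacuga
A 5p match (to miR-7a, miR-15b, miR-16, miR-17, miR-20b or miR-26a) was in 6 of the 10 genes, Xpo5, Tarbp2 and the 4 Argonautes, where 45.0% of 12109 genes tested had one. A passenger 3p match (to miR-7a-1, miR-15b, miR-17 or miR-20b) was also in 6, Dicer1, Tarbp2 and the 4 Argonautes, against 35.5% of genes. Ago3, with a 3′ UTR of 12742 bases, had 9 of the 5p matches, and Ago2 with 11064 bases had 3. These UTRs are longer than those of 99.9% and 99.8% of genes, and long UTRs hold more matches.

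Members called in the same direction differed in their matches. Dicer1, which was lower in HM, had none of these 5p matches and 2 passenger 3p matches. Prkra, also lower, and Drosha, which was higher, had no match to any seed searched. Their 3′ UTRs of 513 and 169 bases are longer than those of only 24.8% and 6.56% of genes, and short UTRs hold fewer matches. Dgcr8, which rose most, had none of these 5p matches and a single match to miR-19b-3p, a 3p guide. Counted apart from these classes, the seed of miR-221-5p had 2 matches in Dicer1, 1 in Dgcr8, 1 in Ago2 and 5 in Ago3, where 16.7% of genes had one. That of miR-26a-2-3p, also a passenger strand, had 1 in Dicer1 and at least 1 in each Argonaute, where 16.2% of genes had one. Xpo5, which was higher, had 1 match to the shared miR-15b and miR-16 seed. The sites of the seeds printed above are given for the called members and Tarbp2 in mm10 coordinates, on the strand of the mRNA, with the match in capitals.
Dicer1, miR-7a-1-3p, chr12:104688817-104688841: atggcagagATTTGTTgactgaaca
Dicer1, miR-17-3p and miR-20b-3p, chr12:104687839-104687863: acagctatcACTGCAGagctgtgcc
Dicer1, miR-19b-3p, chr12:104690345-104690369: gtttaatttTTTGCACtgtgactat
Dgcr8, miR-19b-3p, chr16:18254776-18254800: acagagattTTTGCACaaccaagcc
Xpo5, miR-15b-5p and miR-16-5p, chr17:46242677-46242701: tgagcccctTGCTGCTgggctaaca
Tarbp2, miR-15b-5p and miR-16-5p, chr15:102523576-102523600: ctgaataaaTGCTGCTctttggctt
Tarbp2, miR-17-3p and miR-20b-3p, chr15:102523343-102523364: catcccACTGCAGtgatggata
A seed match is a description of sequence and does not show that a site was bound.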

How the data were processed

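The authors deposited TPM per gene for 18 poly(A) libraries; the values are on a linear TPM scale, rounded to 2 decimals. The libraries were stranded and paired-end, and the submitters' processing notes name cutadapt, STAR and mm10. The study's methods name BBMerge for joining read pairs and RSEM for quantifying genes; the strand setting, annotation release and read depth are not given in the sources used here. All 55450 gene identifiers matched GENCODE release M21, which gave the coordinates. Each pair of lines was compared with limma 3.58.1 (R 4.3.3) with a trend on log2(TPM + 1), over genes averaging at least 1 TPM in the compared samples, with Benjamini-Hochberg adjustment over all of them and a threshold of 0.05. On simulated data for HM against WT, 119 of 200 genes changed by 0.5 and 186 of 200 changed by 1.0 on the log2 scale were recovered. The simulated samples were independent and only those 200 genes changed. The real samples formed alike pairs and 51.4% of genes were called, so this recovery does not give the power of the real fits. Alternatives changed the pseudocount (0.1), filter, scaling, test and samples, and added the replicate number as a block. Of 16 miRNAs looked up in the RefSeq table, 15 matched. The members and gene lists were chosen with earlier results of these data known. Named genes were all members, list genes called between HM and WT, and the 3 closest profiles of Dicer1 and of the members with the largest rise and fall. The uncalled list genes Hsp90ab1 and Ptges3 were named as well. An item of the Microprocessor cofactor list is not reported here.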

Additional observations from a re-analysis of the deposited data

Results flagged for a closer look

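The 30 sets of 6 samples, 10 genes in 3 lines, were searched for a sample far from the others, and chance gives about 1.5 such sets. Dgcr8 in WT sample 6 was at 20.14 TPM, below the other WT samples at 22.9 to 24.4 TPM. Ago2 in WT sample 4 was at 60.19 TPM, above the other WT samples at 52.7 to 54.5 TPM.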

How the results depend on the processing

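For HM against WT, 5 members were called, and 3 with averaged pairs of alike samples; 12 fits that left out a single sample called 5 or 6. For HetKO against WT, 2 were called. The count was 0 with centred samples, quantile normalization, averaged pairs, without HetKO samples 2 and 5, or without WT samples 1 and 4. It was 1 with no filter, with a filter at 5 TPM, with the unequal-variance test or with the replicate block, and 0 to 2 when a single sample was left out. For HM against HetKO, 2 were called, 5 with all 3 lines in a single fit, with quantile normalization or without HetKO samples 2 and 5, and 1 with averaged pairs. Leaving out a single sample gave 2 to 4, the higher counts coming without HetKO sample 2 or 5. The causes were not tested. Likeness by replicate number was weak: deviations of samples sharing a number correlated on average at 0.005 (HM, WT), 0.021 (HM, HetKO) and 0.062 (HetKO, WT). In each comparison with HM, 2 of 12 samples were most alike to the sample of their own number in the other line. For HetKO and WT this held for 7 of 12 samples, and the lowest correlation was 0.025. The numbers may therefore carry some pairing between HetKO and WT. With the block, HM against WT had 6 calls, adding Ago1.

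Uncalled differences turned sign as follows. From WT to HM, Tarbp2 was -0.11 without HM samples 5 and 6 and -0.021 to 0.095 when a single sample was left out, Ago2 was 0.12 when centred, and Ago3 was 0.041 when centred and 0.085 with quantile normalization. From WT to HetKO, Xpo5 was -0.015 and Ago1 0.082 without HetKO samples 2 and 5, Ago1 was 0.019 when centred and -0.14 to 0.022 when a single sample was left out, and Prkra was -0.054 without WT samples 1 and 4. From HetKO to HM, Tarbp2 was -0.0040 without HM samples 5 and 6. Of 317 single-gene values under settings other than leaving out a single sample, 273 kept their sign and their side of the threshold. Fits without HM samples 5 and 6 or WT samples 1 and 4 were chosen after seeing the data.

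Over all genes, averaged pairs gave 3316 calls for HM against WT in place of 7220, 34 for HetKO against WT in place of 1421 and 417 for HM against HetKO in place of 4765, and the unequal-variance test gave 852 for HetKO against WT. Leaving out HM samples 5 and 6 gave 2785 for HM against HetKO. With 10 genes a side, the neighbours' median between HM and WT stayed below 0 for the 9 genes tested and was -0.20 for Dicer1 and -0.01 for Prkra. In the shortest 3′ UTR, 5 genes in place of 6 had a 5p match. Read depth is unknown from TPM, so the counting error of low genes such as Ago4 could not be given.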
